A study of Mus musculus with 8 samples.

Results

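The annexins are a family of proteins that bind membranes through calcium, and 8 of their genes (Anxa1 to Anxa7 and Anxa11) were followed in mouse medulloblastomas with and without Bcl2l1. The members were chosen by family name with their difference between the groups known, and each gene was read from the probe set whose annotation gave its symbol alone, taking the one with the highest mean where there were several. On these terms 7 of the 8 members, among 22180 genes, had a probe set of their own. The 3 probe sets that name Anxa11 name predicted genes as well, so Anxa11 has no value here. All 7 measured members passed the filter on dim genes, which left 15526 genes for testing.

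The tumours came from mice at postnatal day 15 that received no treatment, with 4 tumour samples in each of 2 groups and 1 Affymetrix whole-transcript array per sample. The labels number these replicates without saying that each came from its own animal, so the p-values measure the spread between samples, which may be technical. Every animal carried Math1-Cre and SmoM2, an active form of Smoothened, the signal transducer of the Sonic hedgehog pathway. Cre from the Math1 (Atoh1) promoter acts in granule neuron precursors of the cerebellum, so SmoM2 is switched on and the floxed gene removed in that lineage and not in the other cells of the tumour. The Bcl2l1-deleted group had the genotype Math1-Cre/SmoM2/Bcl2l1 f/f, and the control group had Math1-Cre/SmoM2 with Bcl2l1 left in place. Bcl2l1 encodes BCL-xL, which restrains apoptosis at mitochondria. One status label reads deleted for the controls too, and groups therefore follow the titles and genotypes. The deposited values are log2 RMA expression values, a scale on which a difference of 1 is a doubling. The number of arrays, 4 in each group, limits the precision.

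Annexins bind acidic phospholipids, above all phosphatidylserine, when calcium rises. Anxa5 is the protein used, with a dye attached, to stain phosphatidylserine on the surface of dying cells. Anxa2 forms a complex with the S100 protein S100a10 at the plasma membrane, Anxa1 dampens inflammation through formyl peptide receptors, and several members take part in sealing torn membranes. In brain many annexin transcripts come from glia, vessels and phagocytes more than from neurons.

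The targeted gene was checked first. Bcl2l1 read 5.46, 5.46, 5.69 and 5.32 on Bcl2l1-deleted replicates 1 to 4 and 6.88, 6.57, 6.93 and 6.98 on control replicates 1 to 4. The groups did not overlap, the fitted difference was -1.36 on the log2 scale (SE 0.16, limma, adjusted p = 0.00509, exact permutation test, two-sided, p = 0.0286), and 0.0286 is the smallest p that these group sizes allow. The other facts that touch the annexins concern the arrays. Array medians over all probe sets ran from 4.77 to 5.17. Control replicate 2 had correlations of 0.920 to 0.948 with the other arrays, while the other 7 correlated with each other at 0.966 or more. The median of 1394 olfactory and vomeronasal receptor genes, a measure of background in brain, was 3.60 on that array, from 2.94 to 3.09 for the remaining controls and from 2.79 to 2.92 where Bcl2l1 was deleted. Over the tested genes the median fitted difference was 0.17, and changes are given relative to it. The same value is subtracted for every gene, so a group difference that varies with signal level is not removed. A relative log2 change is the fitted difference, Bcl2l1-deleted minus control, less 0.17, and its SE is that of the fitted difference. The p-values test the fitted difference against 0, not the relative change.

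Anxa2, Anxa3, Anxa5 and Anxa7 were higher in the Bcl2l1-deleted tumours, by 1.75-fold, 2.31-fold, 2.52-fold and 1.84-fold relative to the median gene. For these 4 genes every Bcl2l1-deleted tumour lay above every control. Anxa1, Anxa4 and Anxa6 overlapped between the groups and had relative log2 changes between 0.01 and 0.18. The contrast of the groups was part of how the family was chosen, so these values are a description and no p-value is attached to them. In the fit over all genes (limma, Benjamini-Hochberg adjusted p under 0.05) 4 of the 7 measured members were called higher and 0 lower, the same at an unadjusted p under 0.05, beside 4.93% of all tested genes called higher, 1.60% called lower, 6.52% called either way and 30.5% with an unadjusted p under 0.05. Of all tested genes 19.0% had groups without overlap and were higher in the Bcl2l1-deleted tumours, and 23.4% had no overlap in either direction. The median relative log2 change was 0.81 over the 7 members and 0 over all tested genes by construction, and 2.40% of tested genes changed upward by at least that much. That share counts single genes and gives no probability for a family chosen with this contrast known.

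**Figure D1:**
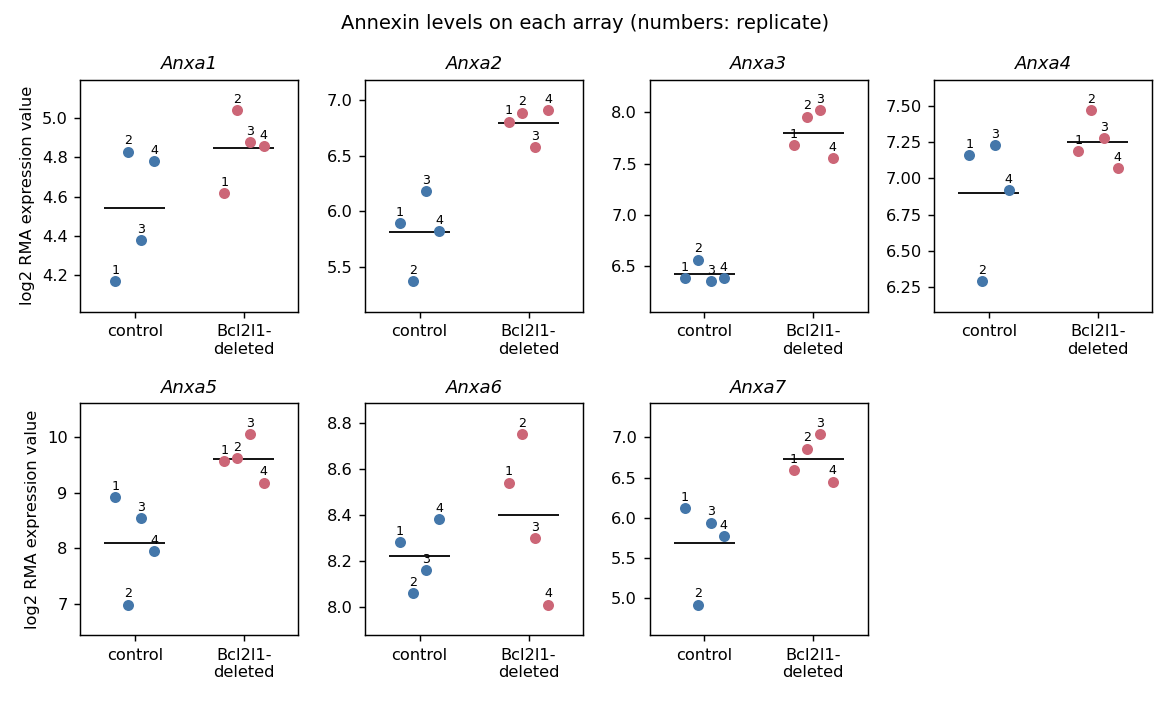
Each panel shows 1 annexin gene, with the log2 RMA expression value on the vertical axis, a point for each array (blue, control; red, Bcl2l1-deleted; the digit is the replicate number) and a line at the group mean (n = 4 each). The axes differ between panels and do not start at 0. Anxa2, Anxa3, Anxa5 and Anxa7 show separate groups, with the gap widest for Anxa3, and control replicate 2 is the lowest control for Anxa2, Anxa4, Anxa5, Anxa6 and Anxa7.

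The sequences before the start sites are shown for 3 of the 4 members whose groups were separate and for Anxa1, whose groups overlapped, so that they can be compared. They are the 250 bases before an annotated start, from RefSeq on GRCm38.p6, where 6 of the 8 members had an entry and Anxa3 and Anxa6 had none. Anxa2 lies at chr9:69453433-69453682 on the plus strand, Anxa5 at chr3:36475888-36476137, Anxa7 at chr14:20479942-20480191 (the first of 2 starts by coordinate) and Anxa1 at chr19:20390672-20390921, the last 3 on the minus strand. Capitals mark matches, on either strand, to 5 motifs: the TATA box, spelled TATAAA; the site of the AP-1 factors, spelled TGANTCA; the box of nuclear factor Y, spelled CCAAT; the box of the Sp1 family, spelled GGGCGG; and the core of PU.1 sites, spelled GAGGAA. No place in these windows matches 2 of the motifs.
Anxa2: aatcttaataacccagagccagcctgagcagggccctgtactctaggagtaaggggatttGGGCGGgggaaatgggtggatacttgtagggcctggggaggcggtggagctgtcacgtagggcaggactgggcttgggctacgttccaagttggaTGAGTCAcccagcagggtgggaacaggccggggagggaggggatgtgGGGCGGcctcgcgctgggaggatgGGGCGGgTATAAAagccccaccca
Anxa5: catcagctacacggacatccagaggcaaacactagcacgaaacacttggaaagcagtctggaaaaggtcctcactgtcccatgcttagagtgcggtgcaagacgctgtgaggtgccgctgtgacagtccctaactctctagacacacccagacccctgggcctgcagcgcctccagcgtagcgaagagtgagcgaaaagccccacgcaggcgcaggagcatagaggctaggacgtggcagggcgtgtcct
Anxa7: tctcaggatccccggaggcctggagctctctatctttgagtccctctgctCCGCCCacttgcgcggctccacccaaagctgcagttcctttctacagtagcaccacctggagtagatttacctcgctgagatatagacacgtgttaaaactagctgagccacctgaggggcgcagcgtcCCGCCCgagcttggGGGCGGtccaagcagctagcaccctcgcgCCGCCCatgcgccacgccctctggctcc
Anxa1: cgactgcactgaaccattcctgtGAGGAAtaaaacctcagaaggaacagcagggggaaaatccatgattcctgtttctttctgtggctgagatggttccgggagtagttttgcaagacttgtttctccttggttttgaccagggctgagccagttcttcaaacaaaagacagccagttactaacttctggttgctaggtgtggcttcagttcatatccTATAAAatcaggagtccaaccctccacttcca
The Anxa2 window held 1 TATA box beginning 17 bases before the start, 1 AP-1 match beginning 95 bases before it and 3 Sp1 boxes. The Anxa7 window held 4 Sp1 boxes and no other match, and the Anxa5 window held none of these letters. The Anxa1 window held 1 TATA box beginning 32 bases before the start and 1 PU.1 core. Among 32841 windows of this length, 12.4% held the TATA box, 6.75% AP-1, 33.9% the nuclear factor Y box, 32.7% the Sp1 box and 23.3% the PU.1 core. No motif was thus shared by all 3 windows of Anxa2, Anxa5 and Anxa7. A match is a description of letters and not a binding site.

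Anxa3, an annexin of phagocytes and of growing vessels, had the widest gap between the groups among the members. It read 7.68, 7.96, 8.02 and 7.55 on Bcl2l1-deleted replicates 1 to 4 and 6.38, 6.56, 6.35 and 6.38 on control replicates 1 to 4. All controls lay within a narrow band, and the lowest Bcl2l1-deleted tumour stood 0.99 above the highest control. The means were 7.80 ± 0.22 (SD, n = 4) and 6.42 ± 0.10 (SD, n = 4), a relative log2 change of 1.21 (SE 0.16). Among the members, Anxa3 alone was called in all 20 alternative settings, leaving out each array included, with relative changes from 1.13 to 1.41.

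Anxa5, the phosphatidylserine-binding annexin, had the largest change of the members over all 8 arrays, while Anxa3 ranked above it without control replicate 2 (1.35 against 1.05), with the receptor median in the fit (1.41 against 0.68) and with array weights (1.35 against 1.09). Anxa5 read 9.56, 9.62, 10.05 and 9.18 on Bcl2l1-deleted replicates 1 to 4 and 8.92, 6.99, 8.54 and 7.95 on control replicates 1 to 4. The controls spread widely, with replicate 2 far below the rest, and the gap between the groups was 0.26. The means were 9.60 ± 0.36 (SD, n = 4) and 8.10 ± 0.84 (SD, n = 4), a relative log2 change of 1.33 (SE 0.36). Without control replicate 2 the change was 1.05 and the gene was still called. When the receptor median entered the fit it was 0.68 and the gene was not called. The receptor median itself differed between the groups without overlap, so that fit can also take up part of the group difference. The call of Anxa5 was also lost without the dim filter and with Xist, a transcript that differs with sex, as a covariate. Of the 8 fits that each left out 1 array, Anxa5 was called in 2, those without control replicate 1 or 2.

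Anxa7, a synexin that joins secretory vesicles to membranes, followed Anxa5 from tumour to tumour. It read 6.59, 6.86, 7.04 and 6.45 on Bcl2l1-deleted replicates 1 to 4 and 6.12, 4.92, 5.94 and 5.77 on control replicates 1 to 4. Within the Bcl2l1-deleted group both genes were highest on replicate 3 and lowest on replicate 4, and within the controls both were highest on replicate 1 and lowest on replicate 2. The means of Anxa7 were 6.74 ± 0.26 (SD, n = 4) and 5.69 ± 0.53 (SD, n = 4), a relative log2 change of 0.88 (SE 0.25). It was 0.71 without control replicate 2 and 0.49 when the receptor median entered the fit, where the call was lost. The call of Anxa7 was also lost without the dim filter, with Xist as a covariate and with same-numbered arrays fitted as blocks. Like Anxa5, it was called in 2 of the 8 fits that left out 1 array, those without control replicate 1 or 2.

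Anxa2, which links actin to the plasma membrane and binds plasminogen activators together with S100a10, read 6.81, 6.89, 6.58 and 6.91 on Bcl2l1-deleted replicates 1 to 4. The controls read 5.89, 5.37, 6.18 and 5.82. The lowest Bcl2l1-deleted tumour, replicate 3, stood 0.41 above the highest control, also replicate 3. The means were 6.80 ± 0.15 (SD, n = 4) and 5.82 ± 0.33 (SD, n = 4), a relative log2 change of 0.81 (SE 0.18). That change stayed between 0.70 and 0.94 in 20 alternatives. The call was lost without Bcl2l1-deleted replicate 1, 2 or 4, without control replicate 4, and with Xist, a transcript that differs with sex, as a covariate.

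Anxa1, Anxa4 and Anxa6 had overlapping groups. Anxa1, induced by glucocorticoids and secreted to restrain leukocytes, read 4.62, 5.04, 4.88 and 4.86 in the Bcl2l1-deleted tumours and 4.17, 4.83, 4.38 and 4.78 in the controls. Its mean over all arrays, 4.69, was close to the dim filter of 4.38, and control replicate 2, the array with the highest receptor median, was the highest control. Its relative log2 change was 0.14 (SE 0.18), and 0.32 without that array. Anxa4, an annexin of epithelial cells, read 7.19, 7.47, 7.28 and 7.07 in the Bcl2l1-deleted tumours and 7.16, 6.29, 7.23 and 6.92 in the controls. Control replicate 2 stood apart, and the relative log2 change fell from 0.18 (SE 0.21) to 0.07 without it. Anxa6, the annexin with a doubled core of repeats, read 8.54, 8.75, 8.30 and 8.01 in the Bcl2l1-deleted tumours and 8.28, 8.06, 8.16 and 8.38 in the controls. Its relative log2 change was 0.01 (SE 0.18), and both the highest and the lowest value of all 8 arrays were in the Bcl2l1-deleted group. None of these 3 genes was called in any alternative that tested it, and the sign of each turned in at least 1 of them, with relative changes from -0.02 to 0.50 for Anxa1, -0.07 to 0.32 for Anxa4 and -0.10 to 0.15 for Anxa6.

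**Figure D2:**
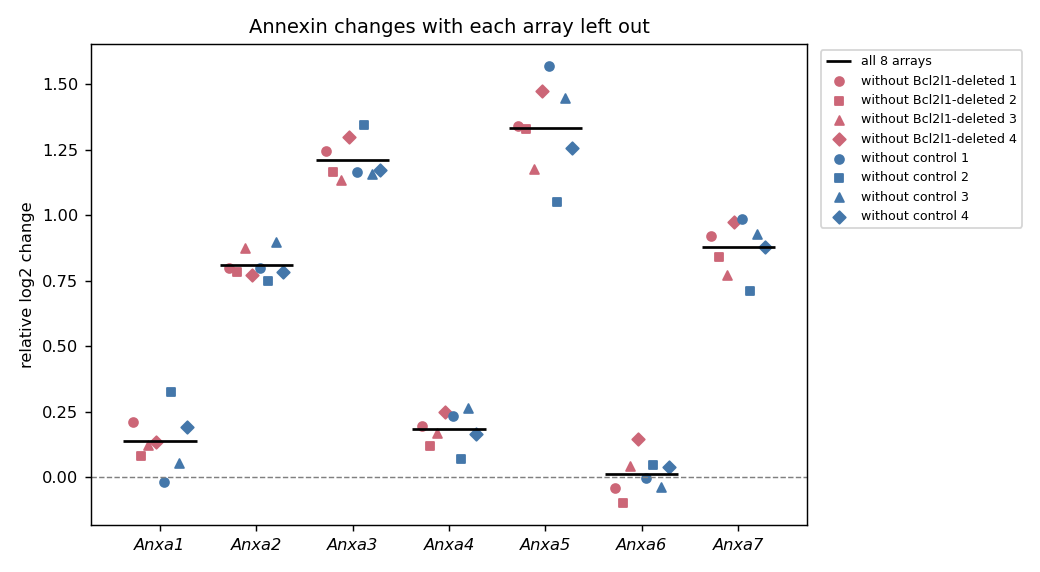
The vertical axis is the relative log2 change (Bcl2l1-deleted minus control, less the median tested gene) of each annexin, with a black line for all 8 arrays and a symbol for each fit with 1 array left out (red, a Bcl2l1-deleted array; blue, a control array; shapes give the replicate). Anxa2, Anxa3, Anxa5 and Anxa7 stay above 0 in all 8 fits, with Anxa5 ranging from 1.05 to 1.57, while the other 3 lie between -0.10 and 0.32.

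The number of members called moved with the arrays, as did the number of all genes called. Leaving out Bcl2l1-deleted replicates 1 to 4 one at a time gave 1, 1, 2 and 1 members, and leaving out control replicates 1 to 4 gave 4, 4, 2 and 1, where 20, 47, 453 and 223 and then 1999, 2100, 461 and 157 of the 15526 genes were called. With all arrays 1013 genes were called, 765 higher and 248 lower. The split depended on the scaling: centring arrays on the tested genes gave 390 higher and 699 lower, centring on all probe sets 1337 and 171, and fitting the receptor median gave 273 and 404. The members called higher numbered 4, 4 and 2 under these settings.

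The 7 members did not form a single pattern across tumours. After removal of the group means, the correlation over the 8 arrays was 0.96 between Anxa5 and Anxa7, 0.93 between Anxa4 and Anxa7 and 0.90 between Anxa4 and Anxa5. These 3 genes shared their lowest value, on control replicate 2. Anxa3 had a correlation of 0.00 with Anxa5, 0.07 with Anxa7 and -0.57 with Anxa2. In the Bcl2l1-deleted group Anxa3, Anxa5 and Anxa7 had the same order, falling from replicate 3 through 2 and 1 to 4. In the controls the order differed: Anxa3 was highest on replicate 2, where Anxa5 and Anxa7 were lowest. Anxa1 had -0.72 with Anxa5 and -0.51 with Anxa2. On control replicate 2, the array with the highest receptor median, Anxa1 had its highest control value and Anxa5 and Anxa2 their lowest. These values describe 8 arrays that share a labelling and normalization and carry no test.

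**Figure D3:**
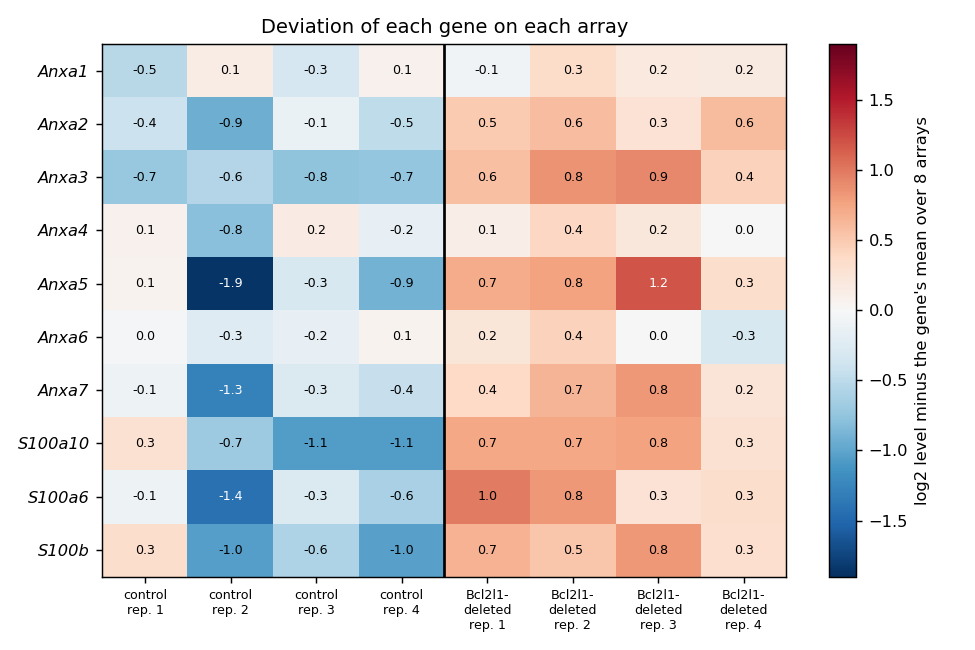
Each cell gives the log2 level of a gene on an array minus the mean of that gene over the 8 arrays (red, above; blue, below), with controls left and Bcl2l1-deleted arrays right of the black line. Anxa5 and Anxa7 are lowest on control replicate 2 and highest on Bcl2l1-deleted replicate 3, Anxa3 is even within the controls, and the 3 S100 genes at the bottom are highest among the controls on replicate 1.

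For each of the 4 members with separate groups, the tested genes with the closest profile over the 8 arrays were sought by Pearson's r, again as a description in which the group difference itself takes part. The search kept the best of many genes over only 8 arrays, so a high r follows from the selection. Values with the group means removed come from the same selected genes and are no separate check. Anxa5 and Anxa7 were far lower on control replicate 2 than on the other controls, which weighs in their correlations. Anxa5 was most like Arhgap45 (r = 0.994), and Csf1r, the receptor that sustains microglia and macrophages (r = 0.993). With the group means removed these correlations were 0.984 and 0.980. Their relative log2 changes were 0.53 for Arhgap45 and 1.15 for Csf1r, given without a test since a profile like that of Anxa5 holds the group difference. Anxa7 was most like Insig2, a regulator of sterol synthesis (r = 0.991), and Arhgap45 (r = 0.990). Anxa3 was most like the stress-induced transcription factor gene Atf3 (r = 0.990) and Rab7b, a GTPase of late endosomes (r = 0.989), at 0.895 and 0.869 with the group means removed. Anxa2 was most like Cfap20dc (r = 0.997) and Leng1 (r = 0.995).

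Of the 4 other annexin genes on the array, Anxa9 passed the dim filter. It read 4.56, 4.46, 4.89 and 4.65 in the Bcl2l1-deleted tumours and 4.65, 4.79, 5.0 and 4.99 in the controls, and the groups overlapped. Its fitted difference was -0.21 (SE 0.16, limma, adjusted p = 0.361), a relative log2 change of -0.39. Anxa13, with a mean of 4.24 over the arrays, Anxa10 with 3.55 and Anxa8 with 3.34 fell below the filter at 4.38, and Anxa1 and Anxa9, with 4.69 and 4.75, were the dimmest annexins above it.

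The S100 proteins, small calcium sensors that pair with annexins, were partly higher as well. This list and the lists below were chosen with earlier results of these data known, so their p-values are a description. Of 10 listed S100 genes 8 were tested, of which 3 were higher, 0 lower and 5 did not pass (limma, adjusted over all genes; 6 higher and 0 lower at an unadjusted p under 0.05), and the median relative log2 change was 0.58. Of all 15526 tested genes 4.93% were called higher and 1.60% lower. At an unadjusted p under 0.05 (limma) 3594 of them were higher and 1136 lower. S100a10, the partner of Anxa2, read 8.67, 8.67, 8.70 and 8.23 in the Bcl2l1-deleted tumours and 8.23, 7.24, 6.87 and 6.87 in the controls. Bcl2l1-deleted replicate 4 and control replicate 1 met at the same level, and the other tumours of the groups lay well apart. Its relative log2 change was 1.09 (SE 0.28, adjusted p = 0.0324). After removal of the group means its correlation with Anxa2 over the 8 arrays was -0.15, beside 0.73 with the group means kept. These correlations describe 8 arrays and carry no test.

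S100a6, a partner of several annexins, read 7.45, 7.30, 6.74 and 6.80 in the Bcl2l1-deleted tumours and 6.37, 5.04, 6.19 and 5.84 in the controls. The groups did not overlap, and the relative log2 change was 1.04 (SE 0.28, adjusted p = 0.0371). S100b, made by astrocytes and other glia, read 8.72, 8.57, 8.88 and 8.36 against 8.38, 7.0, 7.46 and 7.02. Control replicate 1 reached into the Bcl2l1-deleted range, and the relative log2 change was 0.99 (SE 0.28, adjusted p = 0.0394). S100a13, S100a16 and S100a1 had relative log2 changes of 0.72, 0.31 and 0.45 and did not pass (adjusted p = 0.0811, 0.104 and 0.114). S100a11, which pairs with Anxa1, and S100a4 stood at -0.20 and -0.31 (adjusted p = 0.905 and 0.693). S100a8 and S100a9, abundant in neutrophils, lay below the dim filter. The calls of S100a10, S100a6 and S100b held in 11, 10 and 10 of 20 alternatives. Their adjusted p ranged from 0.00369 to 0.111, 0.00568 to 0.131 and 0.00652 to 0.162. In fits without 1 array the 3 calls held only without control replicate 1 or 2.

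**Figure D4:**
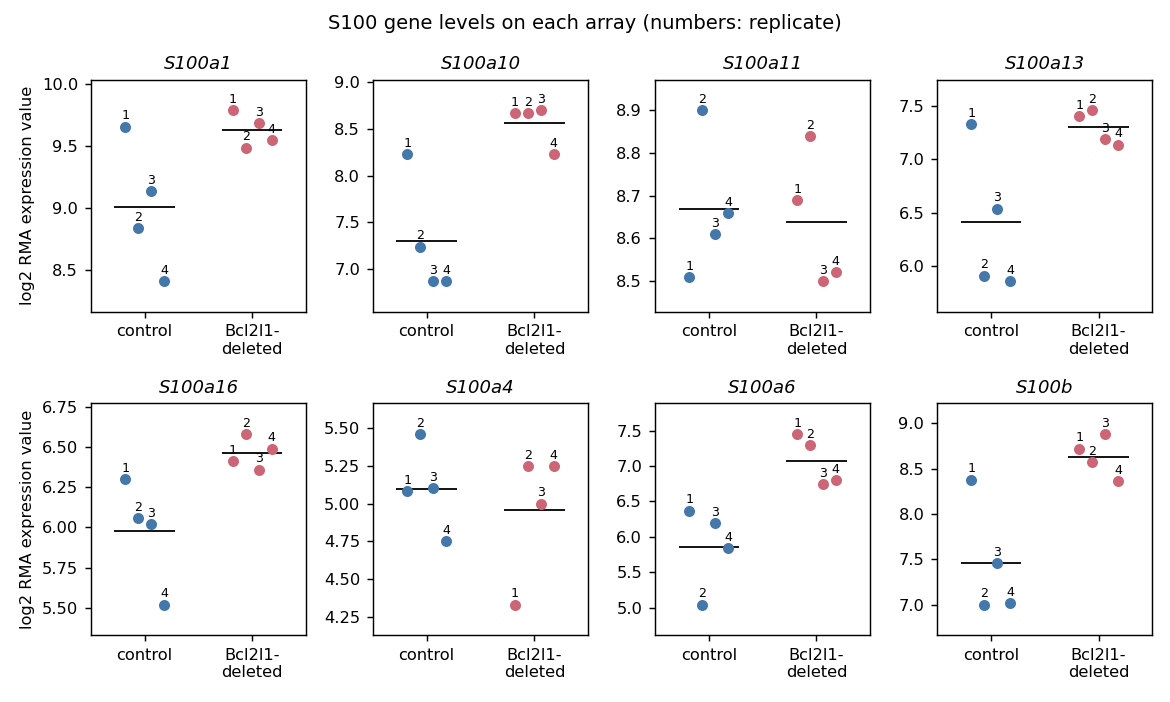
Each panel shows 1 tested S100 gene, with the log2 RMA expression value on the vertical axis, a point for each array (blue, control; red, Bcl2l1-deleted; the digit is the replicate number) and a line at the group mean (n = 4 each). Axes differ between panels. For S100a10, S100a6 and S100b most Bcl2l1-deleted tumours lie above the controls, and control replicate 1 lies closest to them.

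**Figure D5:**
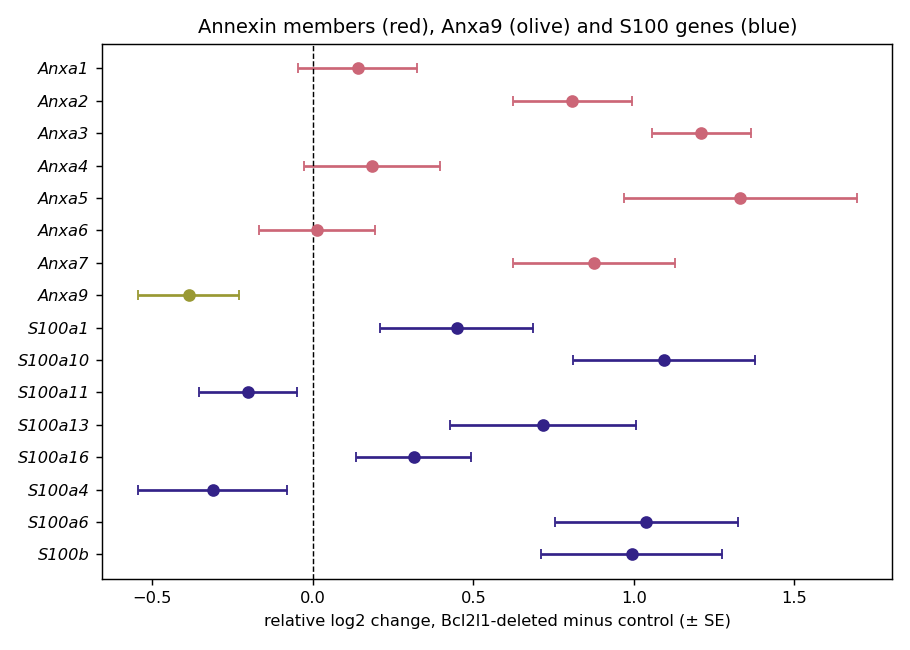
The horizontal axis is the relative log2 change with the SE of the fitted difference as bars (4 arrays per group), for the 7 annexin members in red, Anxa9 in olive and the 8 tested S100 genes in blue. Anxa5, Anxa3, Anxa7 and Anxa2 lie between 0.81 and 1.33, Anxa6 at 0.01, and S100a10, S100a6 and S100b between 0.99 and 1.09.

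Genes of the processes in which annexins act were called in small numbers, to be read beside the 6.52% of all tested genes called in either direction. Their counts at an unadjusted p under 0.05 are to be read beside 3594 higher and 1136 lower of the 15526 tested genes. In the plasminogen system, in which Anxa2 and S100a10 gather enzyme and substrate, 1 of 6 tested genes was higher and 0 lower (4 and 0 at an unadjusted p under 0.05). Plau, the urokinase activator, changed by 0.50 (relative log2 change, SE 0.17, adjusted p = 0.0415), the tissue activator gene Plat by 0.77 (SE 0.31, adjusted p = 0.0818), the receptor gene Plgrkt by 0.37 (adjusted p = 0.139) and the urokinase receptor gene Plaur by 0.17 (adjusted p = 0.155). Among membrane repair genes 2 of 16 were higher and 0 lower (6 and 0 at an unadjusted p under 0.05), namely Ehd2 (0.59, SE 0.15, adjusted p = 0.0237) and Cavin1 (0.61, SE 0.16, adjusted p = 0.0248), both of caveolae. Pef1 (0.49) and the ferlin gene Myof (0.25) did not pass (adjusted p = 0.0998 and 0.102).

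Genes that move phosphatidylserine across the membrane, which sets what Anxa5 can bind, were tested in 11 cases, with 0 higher and 1 lower (2 and 1 at an unadjusted p under 0.05). The neuronal flippase gene Atp8a2 changed by -0.97 (relative log2 change, SE 0.19, adjusted p = 0.0386). The scramblase genes Plscr2 (0.88), Plscr1 (0.33) and Xkr4 (-0.77) did not pass (adjusted p = 0.0848, 0.103 and 0.212). Of 10 glucocorticoid response genes 0 were called (limma; 2 higher and 0 lower at an unadjusted p under 0.05), among them the receptor gene Nr3c1 (0.17, adjusted p = 0.153), Sgk1 (0.81, adjusted p = 0.136), Fkbp5 (0.15, adjusted p = 0.193) and Klf9 (-0.49, adjusted p = 0.284). None of the 7 formyl peptide receptor genes was tested, since 4 had a probe set of their own and lay below the dim filter. Taken with the S100 genes and Anxa9, these lists held 52 tested genes and 7 calls, of which 3 were the S100 genes S100a10, S100a6 and S100b. These 7 calls moved with single arrays: leaving out Bcl2l1-deleted replicates 1 to 4 gave 0, 0, 2 and 0, and leaving out control replicates 1 to 4 gave 13, 9, 1 and 0.

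Markers of several cell types differed between the groups too. In bulk tumour RNA a change in the number of cells and one in RNA per cell cannot be told apart. The counts of called markers are to be read beside 4.93% of all tested genes called higher and 1.60% called lower. Microglia markers were higher in 7 of 13 tested genes, with a mean log2 level of 8.01 to 8.20 over the Bcl2l1-deleted tumours and 6.67 to 7.61 over the controls. Endothelial markers were higher in 5 of 10 (6.93 to 7.09 against 5.95 to 6.5) and meningeal fibroblast markers in 4 of 8 (7.33 to 7.84 against 6.32 to 6.81). Border macrophage markers were higher in 2 of 7 (6.06 to 6.56 against 5.43 to 5.98), mural cell markers in 2 of 8 (6.57 to 7.13 against 6.01 to 6.58) and astrocyte and Bergmann glia markers in 2 of 10 (9.24 to 9.82 against 8.54 to 9.49). Of 9 infiltrating leukocyte markers 4 were tested and 1, the integrin gene Itgal, was higher, while Ccr2, Ly6c2, Cd3e, S100a8 and Ngp lay below the dim filter. Lower calls were made for 6 of 10 markers of differentiating granule neurons (6.37 to 7.69 against 7.80 to 8.84), 2 of 8 of oligodendrocytes (6.03 to 7.55 against 7.20 to 8.56) and 2 of 7 of choroid plexus and ependyma (5.64 to 6.09 against 6.77 to 7.16). The choroid plexus mean was drawn down largely by Ttr, with a relative log2 change of -5.31 where the list median was -0.75. The 5 markers of that list that were not called overlapped between the groups. At an unadjusted p under 0.05 (limma) 6 oligodendrocyte markers were lower and 1, Cnp, was higher (relative log2 change 0.47). The 8 markers of granule neuron progenitors, the cells of origin of the tumour, were all measured above the filter and none was called (limma; 1 higher at an unadjusted p under 0.05). The part of these cell types, and of the receptor background, in the annexin differences was not tested.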

How the data were processed

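Total RNA of 8 tumour samples was hybridised to 1 array each. Per the labels, the deposited values are RMA expression values from the Partek software, here on the log2 scale (0.68 to 13.2). Version, options and genome build: not given in the sources used here. RMA compresses differences near background.

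The platform annotation named 1 symbol for 23521 of 41345 probe sets, several for 1814 and none for 16010, with symbols updated through Entrez identifiers (23328 matched in RefSeq, GRCm38.p6). The probe set with the highest mean stood for a gene. A dim filter removed genes whose 8-array mean did not exceed 4.38, its 30th percentile. Groups were compared with limma 3.58.1 in R 4.3.3 (lmFit, eBayes, no covariate), two-sided, with Benjamini-Hochberg adjustment over 15526 genes at 0.05. The fit was tested on simulated data. Alternatives were 4 scalings or background corrections, the replicate block, Xist as a covariate, other dim filters, variance models, array weights, averaged probe sets and leaving out each array.

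Members and gene lists were chosen with earlier results of these data known. Named genes were the members, Bcl2l1, the other annexins, the S100 genes, the 4 genes with the smallest p of each other process list, and the 2 genes most like each member with separate groups, leaving out predicted genes, microRNAs, small nucleolar RNAs and chemosensory receptors. Itgal, Ttr, Cnp and the leukocyte markers below the filter were named after their values were seen.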

Additional observations from a re-analysis of the deposited data

Results flagged for a closer look

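In 66 gene and group pairs of 4 arrays, over 33 named genes, the distance of the most extreme array from its neighbour relative to the range was looked at, and 3 exceeded Dixon's 95% critical value. Chance gives about 1 in 20, so 3 of 66 is no excess. Anxa3 read 6.56 on control replicate 2, against 6.35 to 6.38 on the other controls, a small distance on a narrow range. Bcl2l1-deleted replicate 4 had S100a10 at 8.23, while its group otherwise ran from 8.67 to 8.70. Bcl2l1-deleted replicate 2 had the scramblase gene Plscr2 at 6.73, while its group otherwise ran from 5.89 to 5.97.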

How the results depend on the processing

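The 4 annexin members called kept a positive relative change in all 20 alternatives, and none was called lower. Their number was 2 with the receptor median as a covariate, 1 with Xist as a covariate, 2 without the dim filter and 1 to 4 with 1 array left out, and 4 with each scaling, variance model, array weights, averaged probe sets and the stricter filter. The median relative change of the members was 0.50 with the receptor median and stayed within the spread of the replicates elsewhere. Over all genes, calls numbered 200 with Xist, 548 without the filter, 3494 with array weights and 20 to 2100 with 1 array left out. Calls among the 52 tested partner genes (the S100 genes, Anxa9 and the process lists together) numbered 7 in the reported fit, 4 with arrays centred on the tested genes, 3 with the receptor median, 0 with Xist, 3 without the filter, 15 with array weights and 0 to 13 with 1 array left out. Bcl2l1 was called in all 20. The titles number replicates without stating a pairing, and the deviations of same-numbered arrays had correlations from -0.13 to 0.05. With 4 arrays in each group these values cannot decide whether the numbers pair the tumours. With the replicate block 508 genes, 3 annexin members (without Anxa7) and 2 of these partner genes, S100a10 and S100b, were called. Causes of these shifts were not tested. Signal near background, as for Anxa1, limits what small differences can be seen.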
